A study of Mus musculus with 5 samples.

Results

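Transcript levels were described for 32 mouse genes of glycolysis and pyruvate metabolism, from the glucose carriers to the enzymes that turn pyruvate into lactate or admit it to the mitochondrion. The genes were a fixed list of symbols, and their RefSeq transcripts were summed per symbol, giving 32 of the 25414 genes in the files. The levels were FPKM, fragment counts scaled to transcript length and sequencing depth, measured by RNA-seq in 2 samples of neural stem cells (NSCs) and 3 samples of STO cells, which the study used beside female germline stem cells. NSCs were primary cells from mouse embryonic cortex, labelled strain C57BL/6, at passages 5 to 8, grown as monocultures on poly-ornithine and laminin in neural basal medium with EGF, bFGF, heparin and B27. STO cells are a fibroblast line from SIM mouse embryos, labelled C57BL/6 and grown past passage 30 in high-glucose DMEM with fetal bovine serum. Cell type, culture medium and passage all differed between the 2 groups and cannot be told apart, and the glucose content of the NSC medium is not given in the sources used here. The labels do not say whether replicates were separate cultures, so the p-values measure only the spread between these samples.

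Glycolysis splits glucose into pyruvate in the cytosol and yields ATP and NADH. Pyruvate is then reduced to lactate by lactate dehydrogenase and exported, or enters the mitochondrion and is oxidized by the pyruvate dehydrogenase complex, which the PDK kinases switch off by phosphorylation. Most steps are served by several isoenzymes from separate genes, and neural progenitors and cultured fibroblasts are both known for active glycolysis.

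The libraries matched their labels. All 6 NSC markers, among them Sox2, Nes and Fabp7, were at 1 FPKM or more in both NSC samples and below it in every STO sample, where Sox2, Pax6, Olig2 and Fabp7 were listed at 0. All 6 fibroblast markers were at 1 FPKM or more in STO cells, with a summed level of 1352 to 1462 FPKM against 5.05 and 5.12 FPKM in NSCs. The summed level of 4 astrocyte markers was 70.4 and 71.4 FPKM in NSCs and 0.242 to 0.432 FPKM in STO cells, and that of 4 oligodendrocyte-lineage markers was 123 and 127 FPKM against 0.977 to 1.14 FPKM. Of 5 neuron markers, 3 reached 1 FPKM in NSCs, with sums of 9.42 and 9.96 FPKM. Fewer cells of a type and less RNA per cell cannot be told apart in such bulk samples. The confidence bounds imply 15223300 to 22271900 fragments per sample, which is a rough figure and not the sequencing depth. The correlation of log2 values within a group was at least 0.994.

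The summed level of the 32 genes was lower in every STO sample than in either NSC sample. It was 8811 and 8106 FPKM in NSCs and 5538, 5392 and 5255 FPKM in STO cells. This was 1.99% and 1.82% of all FPKM in NSCs and 1.40%, 1.40% and 1.31% in STO cells. The STO sum was 0.638 of the NSC sum (exact permutation test, two-sided, p = 0.1, the smallest that 10 assignments allow). Gene by gene, 31 of the 32 genes reached a mean of 1 FPKM in at least 1 group and were tested with limma on log2(FPKM + 1), the exception being Pdk4. In STO cells 22 were lower and 6 higher at an adjusted p under 0.05, while 3 (Gapdh, Pdha1 and G6pdx) were not called. Most genes differed between these cells, since 43.7% of the 12292 genes tested were lower and 41.9% higher, and 85.6% were called in either direction. With a log2 difference of at least 1 also required, 12 of the 31 were lower and 2 higher, against 21.3% and 17.1% of all genes tested. The median log2 difference was -0.80 over the 31 genes and -0.02 over all genes tested. Rescaling each sample to the same total, as TPM (transcripts per unit of total), moved the median of all genes to 0.14, and the members then stood at -0.65, which is 0.79 below all genes as against 0.78 before. With quantile normalization the gap was 0.58, and without NSC replicate 1 it was 0.67. Slc2a3, Slc16a3 and Aldoc passed the level filter only through NSCs, so that they had to differ, and their values are given as a description without a p. Of the 28 genes at 1 FPKM or more in both groups, 19 were lower and 6 higher, against 38.9% and 43.6% of the 9827 such genes among all tested, and the median was -0.62 against 0.05.

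**Figure D1:**
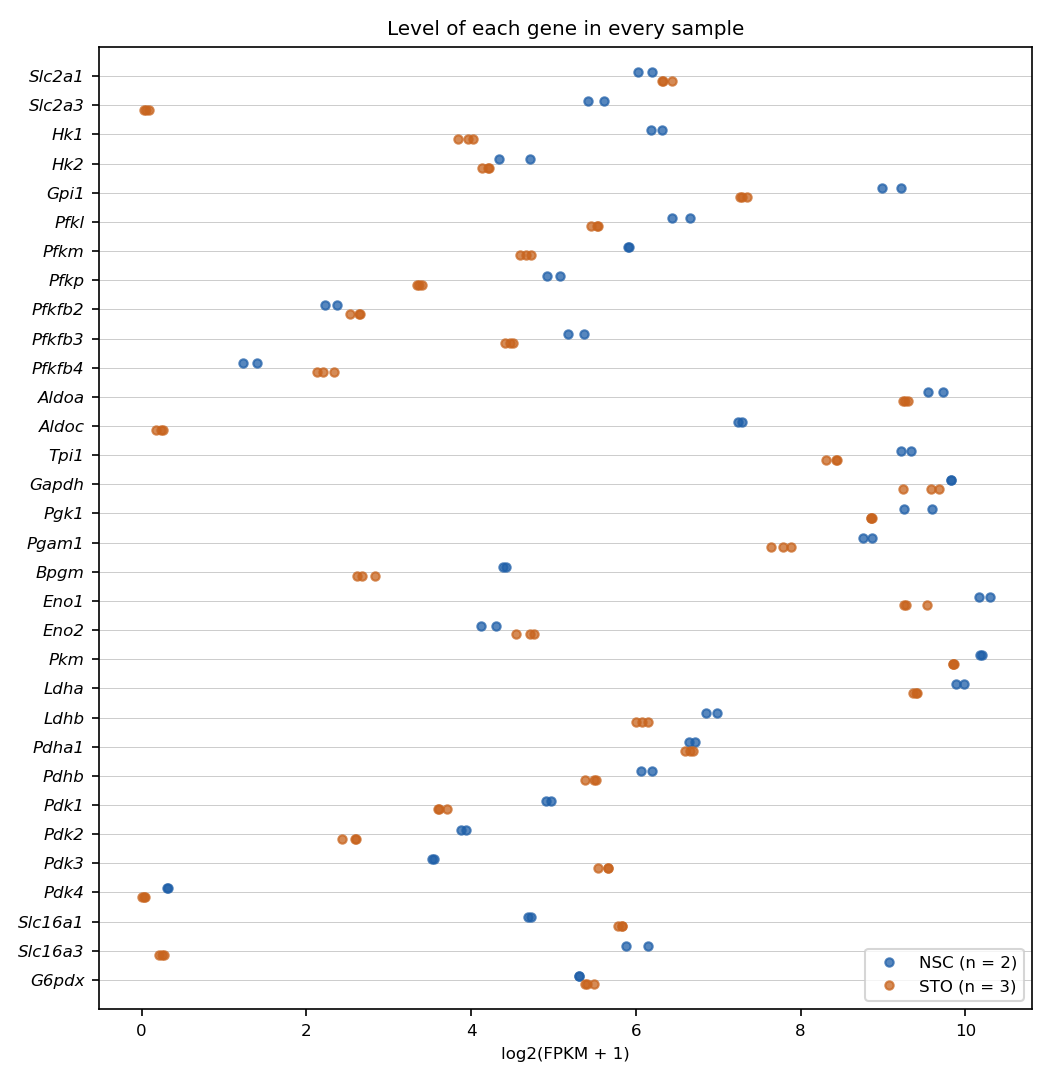
Level of the 32 genes in every sample as log2(FPKM + 1), with 1 point per sample, NSCs in blue (n = 2) and STO cells in orange (n = 3). The STO points of Slc2a3, Aldoc and Slc16a3 lie near 0, while Pdk3 and Slc16a1 lie to the right of the NSC points.

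**Figure D2:**
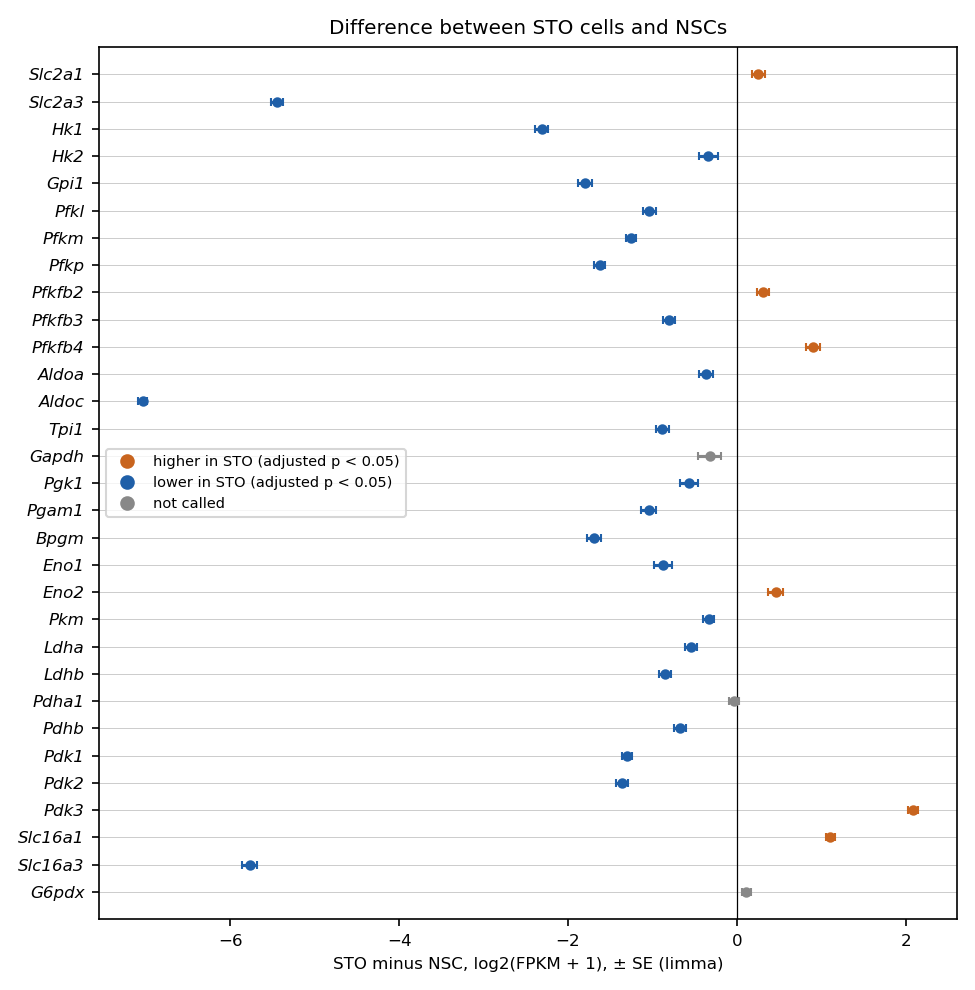
Difference in log2(FPKM + 1), STO minus NSC, for the 31 tested genes, with bars for the SE from limma and colour for the call. Values on this scale run from -7.04 for Aldoc to 2.09 for Pdk3, and 22 genes were called lower in STO cells, 3 of which (Slc2a3, Aldoc and Slc16a3) passed the level filter only through NSCs.

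The glucose carriers came first in the pathway and moved apart. Slc2a1, which encodes the widespread carrier GLUT1, was at 72.1 and 64.0 FPKM in NSCs and at 85.9, 79.4 and 78.4 FPKM in STO cells. The groups did not overlap, and the difference was 0.25 on the log2 scale (SE 0.07, limma adjusted p = 0.0177), a call that was lost without NSC replicate 2 (0.17) and without STO replicate 1 (0.21). Slc2a3, which encodes the high-affinity carrier GLUT3 of neurons, was at 47.7 and 41.7 FPKM in NSCs and at 0.0672, 0.0391 and 0.0220 FPKM in STO cells. The confidence bounds put the STO values at about 6, 4 and 3 fragments, so Slc2a3 was close to undetected there, with a log2(FPKM + 1) difference of -5.45. Slc2a3 therefore held 39.6% ± 0.274 (SD, n = 2) of the summed level of both carriers in NSCs and 0.0518% ± 0.0251 (SD, n = 3) in STO cells. The summed carrier level in STO cells was 0.721 of that in NSCs.

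The hexose steps were lower in STO cells. Hk1, the hexokinase that sits on the outer mitochondrial membrane in brain, was at 78.6 and 71.8 FPKM in NSCs and at 13.3, 14.6 and 15.2 FPKM in STO cells, a log2 difference of -2.31 (SE 0.08, limma adjusted p = 4.82e-07). Hk2, the inducible hexokinase of muscle and tumours, was at 25.3 and 19.3 FPKM in NSCs and at 17.5, 17.6 and 16.6 FPKM in STO cells. Its groups lay close together, with a log2 difference of -0.34 (SE 0.11, limma adjusted p = 0.0267), and the call was lost without NSC replicate 1 (-0.15), without STO replicate 1 (-0.35) or 3 (-0.31) and with TPM (-0.18). Hk2 made up 22.7% ± 2.23 (SD, n = 2) of the summed hexokinases in NSCs and 54.6% ± 2.33 (SD, n = 3) in STO cells. Gpi1, glucose-6-phosphate isomerase, was the step with the lowest ratio of STO to NSC level, 0.285. It was at 595 and 505 FPKM in NSCs and at 156, 152 and 162 FPKM in STO cells, a log2 difference of -1.80 (SE 0.09, limma adjusted p = 2.85e-06).

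Phosphofructokinase commits the sugar to glycolysis, and all 3 subunit genes were lower in STO cells. Pfkl, the liver-type subunit, was at 99.9 and 85.8 FPKM in NSCs and between 42.8 and 45.5 FPKM in STO cells. Pfkm, the muscle-type subunit, was at 59.1 and 59.4 FPKM in NSCs and between 23.1 and 25.4 FPKM in STO cells. Pfkp, the platelet-type subunit, was at 32.8 and 29.2 FPKM in NSCs and between 9.17 and 9.56 FPKM in STO cells. The log2 differences were -1.04, -1.25 and -1.62 in that order, and no subunit's groups overlapped. Pfkp made up 16.9% ± 0.253 (SD, n = 2) of the 3 subunits in NSCs and 12% ± 0.487 (SD, n = 3) in STO cells, and Pfkl 50.6% ± 2.03 and 57.0% ± 0.183, whereas the Pfkm share overlapped between the groups (32.5% and 31.0%, exact permutation p = 0.4).

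The bifunctional PFKFB enzymes set the level of fructose-2,6-bisphosphate, the main activator of phosphofructokinase, and they did not move together. Pfkfb3, whose product mainly makes the activator, was at 40.2 and 35.0 FPKM in NSCs and at 21.7, 21.2 and 20.2 FPKM in STO cells (log2 difference -0.80, SE 0.07). Pfkfb4 was at 1.35 and 1.64 FPKM in NSCs and at 4.04, 3.37 and 3.62 FPKM in STO cells (log2 difference 0.90, SE 0.08). Pfkfb2, the heart-type enzyme, was at 4.19 and 3.68 FPKM in NSCs and at 5.22, 5.30 and 4.75 FPKM in STO cells (log2 difference 0.30, SE 0.07, limma adjusted p = 0.00721), and its call was lost without NSC replicate 2 (0.23). Pfkfb3 remained the main transcript of the 3 in both cells, at 87.3% ± 0.762 (SD, n = 2) in NSCs and 70.6% ± 0.457 (SD, n = 3) in STO cells.

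**Figure D3:**
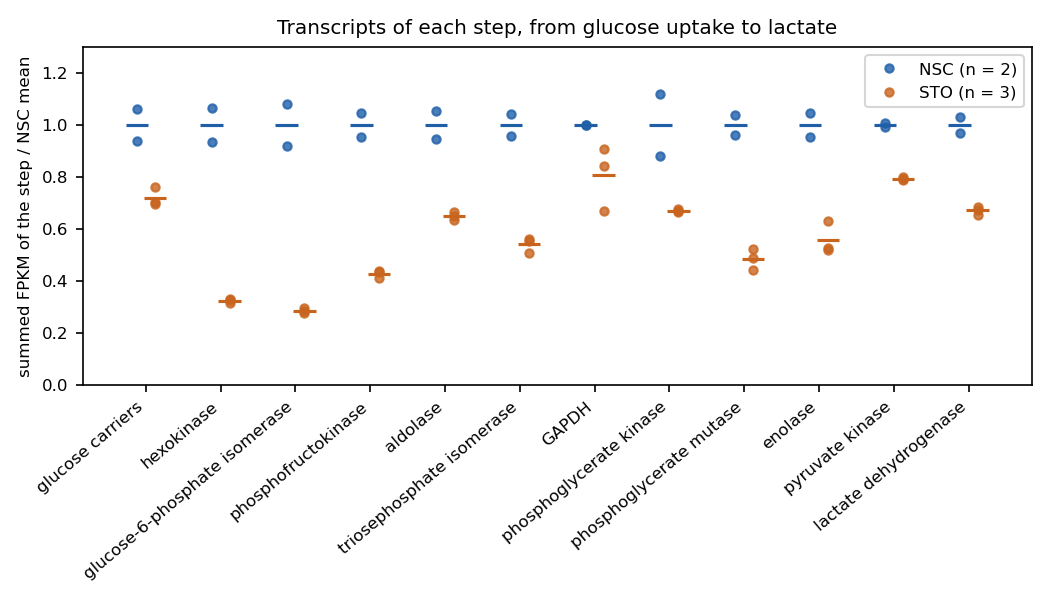
Summed FPKM of the genes serving each step, divided by the NSC mean of that step, for the 2 NSC and 3 STO samples, with a line at each group mean. STO means run from 0.285 at glucose-6-phosphate isomerase to 0.806 at GAPDH, and the STO points of every step lie under its NSC points.

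The aldolase genes differed to unlike degrees. Aldoc, the brain and astrocyte aldolase, was at 155 and 150 FPKM in NSCs and at 0.182, 0.130 and 0.196 FPKM in STO cells. The log2(FPKM + 1) difference was -7.04, and the confidence bounds put the STO values at about 10, 8 and 17 fragments. Astrocyte markers moved the same way, with all 4 of 4 at 1 FPKM or more in NSCs and none in STO cells, and their part in the Aldoc level was not tested. Aldoa, the aldolase of most tissues, was at 845 and 750 FPKM in NSCs and at 603, 617 and 632 FPKM in STO cells. Its difference of -0.37 (SE 0.08, limma adjusted p = 0.00484) was not called with TPM (-0.19) and had the opposite sign, 0.02, with quantile normalization. Aldoc held 16.1% ± 0.829 (SD, n = 2) of the aldolase level in NSCs and 0.0274% ± 0.00548 (SD, n = 3) in STO cells.

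Among the triose steps, Tpi1, triosephosphate isomerase, was at 646 and 593 FPKM in NSCs and at 344, 315 and 347 FPKM in STO cells (log2 difference -0.88, SE 0.08). Gapdh, a common reference gene in RNA assays, was at 905 and 907 FPKM in NSCs and at 763, 821 and 606 FPKM in STO cells. The groups did not overlap, but the STO spread was wide (730 ± 111 FPKM, SD, n = 3) and the difference of -0.32 was not called (SE 0.14, limma adjusted p = 0.0637). Its 2 RefSeq transcripts were apportioned differently, since the transcript NM_001289726 was listed at 0 in both NSC samples and at 344, 418 and 232 FPKM in STO cells. With the higher transcript alone the difference was -1.18 and called, with quantile normalization it was 0.06, and it was called without STO replicate 2 (-0.41) and with median-of-ratios scaling (-0.37). The ratio of Gapdh to Pkm was 0.769 and 0.786 in NSCs and 0.820, 0.893 and 0.656 in STO cells, and these overlapped (exact permutation p = 1). The ratio of Gapdh to Tpi1 was 1.40 and 1.53 in NSCs and 2.22, 2.60 and 1.75 in STO cells (exact permutation p = 0.2).

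The next steps were lower in STO cells. Pgk1, phosphoglycerate kinase, which yields the first ATP of the pathway, was at 774 and 608 FPKM in NSCs and at 467, 460 and 462 FPKM in STO cells (log2 difference -0.57, SE 0.11), and with quantile normalization its difference of -0.10 was not called. Pgam1, phosphoglycerate mutase, was at 467 and 433 FPKM in NSCs and at 235, 220 and 199 FPKM in STO cells (log2 difference -1.04, SE 0.09). Bpgm, which makes 2,3-bisphosphoglycerate on a side branch, was at 19.9 and 20.4 FPKM in NSCs and at 5.10, 5.41 and 6.15 FPKM in STO cells (log2 difference -1.69, SE 0.08). Bpgm thus stood at 0.276 of its NSC level.

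Eno1, the enolase of most tissues, was the most abundant of the 32 genes in NSCs. It was at 1254 and 1147 FPKM there and at 743, 618 and 608 FPKM in STO cells, a log2 difference of -0.87 (SE 0.11, limma adjusted p = 0.000378). Eno1b is a near-identical copy of Eno1, and the way reads were split between them is uncertain. Eno1b was listed at 99.0 and 109 FPKM at its own locus in NSCs and at 0.503, 0.439 and 0.281 FPKM in STO cells, whereas a second Eno1b entry at the Eno1 locus was at 0 except for 91.0 and 92.4 FPKM in STO replicates 2 and 3. The sum over Eno1 and both Eno1b entries was 1353 and 1256 FPKM in NSCs and 743, 710 and 701 FPKM in STO cells, 0.550 of the NSC mean. Eno2, the neuronal enolase, was at 18.8 and 16.4 FPKM in NSCs and at 26.1, 22.4 and 25.3 FPKM in STO cells (log2 difference 0.46, SE 0.09, limma adjusted p = 0.00293). This call was lost with the highest transcript alone (0.12) and without NSC replicate 2 (0.37). The Eno2 share of enolase was 1.44% ± 0.0455 (SD, n = 2) in NSCs and 3.62% ± 0.323 (SD, n = 3) in STO cells.

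Pyruvate kinase makes pyruvate, and the Pkm gene yields 2 enzyme forms, M1 of muscle and brain and M2 of proliferating cells, by choosing between adjacent exons. The exons are shown because they are what separates the 2 transcripts measured here. On mm9 each is exon number 9 of its GENCODE transcript and 167 bases long on the plus strand of chromosome 9, and 103 positions (61.7%) are identical between them. Capitals mark the 64 positions that differ.
M1 exon, chr9:59522836-59523002: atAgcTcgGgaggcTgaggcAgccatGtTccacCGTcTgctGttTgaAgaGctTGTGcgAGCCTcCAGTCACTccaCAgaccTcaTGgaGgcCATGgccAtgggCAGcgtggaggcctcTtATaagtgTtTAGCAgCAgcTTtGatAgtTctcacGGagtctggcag
M2 exon, chr9:59523375-59523541: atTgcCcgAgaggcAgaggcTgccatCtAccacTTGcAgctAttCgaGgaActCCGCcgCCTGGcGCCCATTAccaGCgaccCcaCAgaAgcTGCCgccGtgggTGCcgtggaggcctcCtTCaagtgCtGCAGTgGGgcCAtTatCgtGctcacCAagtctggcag

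Pkm as a whole was at 1176 and 1154 FPKM in NSCs and at 930, 920 and 923 FPKM in STO cells. Its difference was -0.33 (SE 0.07, limma adjusted p = 0.00362), was not called with TPM (-0.16), and was 0.08 with quantile normalization. The M2 transcript (NM_011099) was at 1176 and 1154 FPKM in NSCs and at 800, 790 and 791 FPKM in STO cells. The M1 transcript (NM_001253883) was listed at 0 in both NSC samples and at 130, 130 and 133 FPKM in STO cells. It thus held 13.9%, 14.1% and 14.4% of Pkm in the STO samples (exact permutation p = 0.1). This p adds nothing, since the listed 0 sets the M1 share to 0 in both NSC samples. An exact 0 in these files can be a failed split of reads between transcripts, so it is not a measured absence, and reads over the 2 exons were not counted here. Factors known to act on this exon choice were described as a list of 7 genes, of which 2 were higher, 1 lower and 4 not called. Over all genes tested 41.9% were higher and 43.7% lower. Ptbp1, which represses the M1 exon, was at 91.4 and 97.7 FPKM in NSCs and at 227, 223 and 228 FPKM in STO cells (log2 difference 1.25, SE 0.06). Its neural paralog Ptbp2 was at 32.2 and 29.2 FPKM in NSCs and at 15.1, 15.9 and 13.8 FPKM in STO cells (log2 difference -0.99, SE 0.08). Nek2 was higher by 0.26 (SE 0.06).

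Lactate dehydrogenase interconverts pyruvate and lactate. Ldha, the form that favours lactate production, was at 1007 and 948 FPKM in NSCs and at 674, 656 and 682 FPKM in STO cells (log2 difference -0.54, SE 0.07, limma adjusted p = 0.000391). Ldhb, the heart-type form, was at 126 and 114 FPKM in NSCs and at 66.5, 62.8 and 69.7 FPKM in STO cells (log2 difference -0.85, SE 0.07). Both were lower in every STO sample than in either NSC sample, and Ldha made up most of the pair in both cells, since the Ldhb share was 10.9% ± 0.271 (SD, n = 2) and 9.0% ± 0.262 (SD, n = 3).

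The monocarboxylate carriers, which move lactate across the plasma membrane, differed in opposite directions. Slc16a3, which encodes the export carrier MCT4 of glycolytic cells, was at 70.0 and 57.9 FPKM in NSCs and at 0.186, 0.211 and 0.158 FPKM in STO cells (log2 difference -5.77). The STO values were about 9, 12 and 12 fragments by the confidence bounds, and they fell on another RefSeq transcript than in NSCs. Slc16a1, which encodes the widespread carrier MCT1, was at 24.9 and 25.5 FPKM in NSCs and at 56.1, 56.0 and 54.1 FPKM in STO cells (log2 difference 1.11, SE 0.05, limma adjusted p = 1.99e-06). Slc16a3 held 71.6% ± 3.05 (SD, n = 2) of the pair in NSCs and 0.332% ± 0.0416 (SD, n = 3) in STO cells. The sum of both carriers in STO cells was 0.624 of that in NSCs. Of 5 genes for carrier partners and for the VDAC channels that bind hexokinase, 1 was higher, 3 lower and 1 not called. Over all genes tested 41.9% were higher and 43.7% lower. The gene not called was the carrier partner Bsg, at 331 and 303 FPKM in NSCs and at 376, 341 and 369 FPKM in STO cells. Emb, a chaperone of monocarboxylate carriers, was at 5.36 and 6.69 FPKM in NSCs and at 31.7, 32.5 and 34.7 FPKM in STO cells (log2 difference 2.28, SE 0.09). Vdac1 was at 291 and 272 FPKM in NSCs and at 136, 134 and 134 FPKM in STO cells (log2 difference -1.06, SE 0.06), Vdac2 differed by -0.37 (SE 0.06), and Vdac3 by -0.17 (SE 0.06). The Vdac3 call did not hold, since its sign turned with TPM (0.0010) and with the highest transcript alone (0.46), and it was lost with quantile normalization (-0.03), with the replicate block (-0.20), without NSC replicate 1 (-0.14) and without STO replicate 1 or 2 (-0.16 for each).

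**Figure D4:**
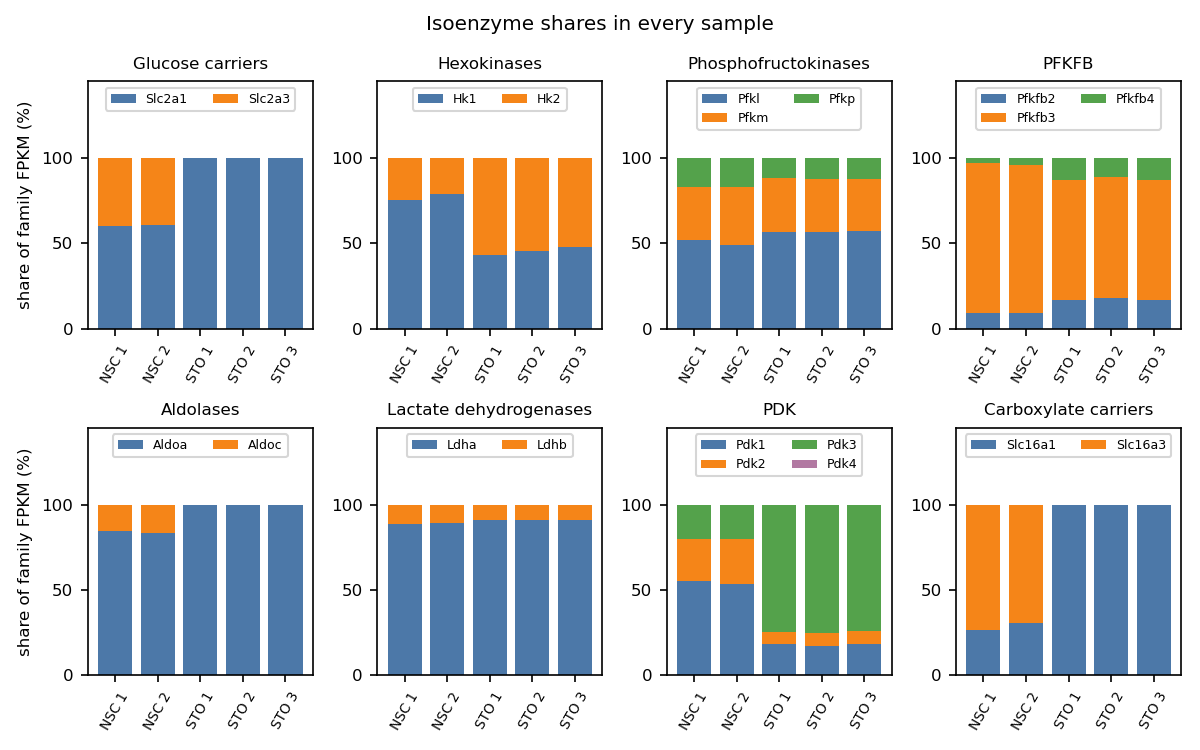
Share of each isoenzyme in the summed FPKM of its family, in percent, with 1 stacked bar per sample for 8 families. Slc2a3, Aldoc and Slc16a3 made up 39.6%, 16.1% and 71.6% of their families in NSCs and under 0.4% in STO cells, while Pdk3 made up 19.5% of its family in NSCs and 74.7% in STO cells.

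At the entry to the mitochondrion, the pyruvate dehydrogenase E1 subunits differed from each other. Pdha1, the catalytic alpha subunit, was at 99.0 and 104 FPKM in NSCs and at 95.8, 99.7 and 102 FPKM in STO cells. The groups overlapped and the difference was -0.03 (SE 0.06, limma adjusted p = 0.614), with a sign that turned to 0.14 in TPM and 0.11 with quantile normalization. Pdhb, the beta subunit, was at 72.4 and 65.9 FPKM in NSCs and at 43.8, 40.6 and 44.8 FPKM in STO cells (log2 difference -0.67, SE 0.07).

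The 4 PDK kinases that inhibit this complex did not move together. Pdk1, a known target of hypoxia signalling, was at 30.3 and 29.1 FPKM in NSCs and at 11.3, 11.1 and 12.1 FPKM in STO cells (log2 difference -1.30, SE 0.06, limma adjusted p = 2.01e-06). Pdk2 was at 13.7 and 14.4 FPKM in NSCs and at 4.41, 5.03 and 5.09 FPKM in STO cells (log2 difference -1.36, SE 0.07). Pdk3 was at 10.7 and 10.5 FPKM in NSCs and at 45.6, 49.8 and 49.8 FPKM in STO cells, the largest rise of the set (log2 difference 2.09, SE 0.06, limma adjusted p = 2.54e-07). Pdk4, the starvation-induced kinase, was at 0.249 and 0.235 FPKM in NSCs and at 0, 0.0224 and 0.0253 FPKM in STO cells and was not tested. Pdk3 accounted for 19.5% ± 0.0753 (SD, n = 2) of the summed kinases in NSCs and 74.7% ± 0.614 (SD, n = 3) in STO cells, while the Pdk1 share was 54.4% ± 1.05 and 17.8% ± 0.768. The sum of the kinases in STO cells was 1.19 times that in NSCs. Of the 16 isoenzyme shares compared, each except that of Pfkm had an exact permutation p of 0.1, the smallest possible, or 0.107 after adjustment over the 16, so that none could reach the threshold with these sample numbers. For the shares of Slc2a3, Aldoc and Slc16a3 this p adds nothing, since these genes passed the level filter only through NSCs.

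G6pdx, glucose-6-phosphate dehydrogenase, leads glucose-6-phosphate into the pentose phosphate pathway. It was at 38.7 and 38.8 FPKM in NSCs and at 40.6, 41.3 and 44.2 FPKM in STO cells, with a difference of 0.11 (SE 0.06, limma adjusted p = 0.102) that was called with TPM (0.29) and with quantile normalization (0.15).

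The pathway's neighbours were counted from lists of other genes. Over all genes tested 41.9% were higher and 43.7% lower in STO cells, and each count is to be read beside these shares. Of 23 other isoenzymes and carriers, 7 passed the level filter, and 3 were higher and 4 lower in STO cells. Of these 7 genes, 5 passed through 1 group only and had to differ, namely Eno3, Slc2a10, Pfkfb1, Slc2a12 and Slc2a13. Eno3, the muscle enolase, was at 0.972 and 0.759 FPKM in NSCs and at 18.4, 17.0 and 19.2 FPKM in STO cells (log2 difference 3.36), close to the Eno2 level there. The carrier gene Slc2a10 and Pfkfb1 differed by 1.63 and 1.40. Slc2a12 was at 1.64 and 2.33 FPKM in NSCs and listed at 0 in STO cells, and Slc2a13 and Slc2a8 had log2 differences of -1.15 and -0.56.

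Of 11 genes for pyruvate entry and handling in mitochondria, 4 were higher, 5 lower and 2 not called. The shares over all genes tested were 41.9% higher and 43.7% lower. Pdp1, a phosphatase that reverses the action of the PDK kinases, was at 1.85 and 1.73 FPKM in NSCs and at 15, 15.9 and 15.8 FPKM in STO cells (log2 difference 2.57, SE 0.06), while its relative Pdp2 was lower (-0.86, SE 0.07). Mpc2, a subunit of the mitochondrial pyruvate carrier, and Pdhx, the E3-binding protein of the complex, were also lower (-0.90 and -0.70), and Lias and Lipt1 of the lipoate pathway were higher (0.25 and 0.40), the Lipt1 call being lost without NSC replicate 1 (0.31) or 2 (0.49). Of 9 pentose phosphate genes, 4 were higher, 4 lower and 1 not called, which is near the shares over all genes tested. Tkt, transketolase, was at 233 and 229 FPKM in NSCs and at 71.5, 69.0 and 73.6 FPKM in STO cells (log2 difference -1.68, SE 0.05), Pgls and Taldo1 differed by -1.32 and -0.75, and H6pd, the dehydrogenase of the endoplasmic reticulum, by 2.34 (SE 0.05). Prps2 and Rpe were higher by 0.68 and 0.34, the Rpe call being lost without NSC replicate 1 (0.22).

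Of 18 genes of gluconeogenesis and of branches off glycolysis, 14 were tested, and 5 were higher, 8 lower and 1 not called. The shares over all genes tested were 41.9% higher and 43.7% lower. Gpd1, the cytosolic glycerol-3-phosphate dehydrogenase, was at 48.8 and 54.2 FPKM in NSCs and at 0.382, 0.153 and 0.366 FPKM in STO cells (log2 difference -5.34), and passed the level filter only through NSCs. The malic enzymes moved apart, with cytosolic Me1 at -1.91 (SE 0.05) and mitochondrial Me2 at 1.18 (SE 0.07). Pck2, the mitochondrial phosphoenolpyruvate carboxykinase, was at 5.27 and 5.36 FPKM in NSCs and at 20.5, 18.8 and 18.8 FPKM in STO cells (log2 difference 1.69, SE 0.06), and Pgm2 was higher by 1.02. Akr1b3, an aldose reductase, was at 59.2 and 61.8 FPKM in NSCs and at 0, 14.1 and 17.5 FPKM in STO cells. The difference of -3.23 (SE 1.24, limma adjusted p = 0.0466) carries the listed 0 of STO replicate 1, was -1.88 without that sample, and was not called under 6 of the alternatives, among them TPM (-3.53) and leaving out NSC replicate 1 (-3.26) or 2 (-3.21).

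Hypoxia-inducible factors bind sites that include ACGTG and are known to raise many of the genes above. The promoters were searched for ACGTG alone. RefSeq windows on GRCm38.p6 were read for the 250 bases before each transcript start, and ACGTG was counted on both strands, so that the palindrome CACGTG counts on each. The letters occurred in 16.6% of the 32851 promoter windows and in 19 of the 47 windows (40.4%) of the 31 genes that had one, which belonged to 15 genes. These were 4 of the 6 genes higher in STO cells (Pdk3, Pfkfb2, Slc16a1 and Slc2a1), 11 of the 21 lower genes with a window and none of the 3 that were not called. A gene can have several windows, so these counts of genes cannot be set against the 16.6% of windows. Windows of a gene can also overlap, and 2 Aldoa windows held the same match, so the 19 windows are not all separate sites. The share per gene over all genes was not computed. The windows shown from the lactate branch are only those with a match. Ldha held 5 matches before the upstream of its 2 starts and none before the other. The carriers Slc16a3 and Slc16a1 held 2 each, as 2 separate sites in Slc16a3 and as 1 palindrome in Slc16a1. Ldhb, of the same branch, held none in its window, which is not shown. The upstream of the 2 windows of Aldoc is also shown, and both Aldoc windows held none. Capitals mark ACGTG or its complement CACGT, in the direction of the gene.
Ldha promoter, chr7:46845554-46845803, plus strand: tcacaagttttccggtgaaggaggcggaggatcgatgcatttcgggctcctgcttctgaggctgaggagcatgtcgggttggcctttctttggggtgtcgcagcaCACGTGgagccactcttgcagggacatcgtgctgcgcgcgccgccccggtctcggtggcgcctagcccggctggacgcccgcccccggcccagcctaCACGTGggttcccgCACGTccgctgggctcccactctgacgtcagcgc
Slc16a3 promoter, chr11:120948817-120949066, plus strand: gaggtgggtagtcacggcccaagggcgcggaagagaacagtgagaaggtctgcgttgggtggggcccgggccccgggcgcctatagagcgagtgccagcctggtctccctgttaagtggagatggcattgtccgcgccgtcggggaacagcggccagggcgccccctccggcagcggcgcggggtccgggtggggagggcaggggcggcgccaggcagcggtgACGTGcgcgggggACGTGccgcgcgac
Slc16a1 promoter, chr3:104638414-104638663, plus strand: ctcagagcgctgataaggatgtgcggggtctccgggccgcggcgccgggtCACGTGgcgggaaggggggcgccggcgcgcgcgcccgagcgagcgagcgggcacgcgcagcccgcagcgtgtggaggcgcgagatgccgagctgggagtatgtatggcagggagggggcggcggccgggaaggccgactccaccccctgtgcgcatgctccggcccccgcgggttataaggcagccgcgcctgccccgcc
Aldoc promoter, chr11:78322823-78323072, plus strand: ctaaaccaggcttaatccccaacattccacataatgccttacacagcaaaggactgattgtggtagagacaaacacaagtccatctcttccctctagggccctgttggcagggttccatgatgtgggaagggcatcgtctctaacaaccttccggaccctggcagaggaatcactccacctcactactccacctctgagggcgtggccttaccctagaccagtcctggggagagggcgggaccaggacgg

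A match is a description of the letters in this window only. The related letters GCGTG, which the Aldoc window shown holds, were not counted. A window without a match is therefore not shown to lack a site.

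Of the 9 tested genes of the hypoxia-inducible factor pathway, 3 were higher in STO cells, 5 lower and 1 not called. Over all genes tested 41.9% were higher and 43.7% lower. Hif1a, the oxygen-labile subunit, was at 30.7 and 34.3 FPKM in NSCs and at 124, 139 and 130 FPKM in STO cells (log2 difference 1.98, SE 0.08). Its transcript NM_001313920 was listed at 0 in both NSC samples and at 49.1, 61.7 and 57.0 FPKM in STO cells, and with the highest transcript alone the difference was 1.06. Its partner Arnt was at 10.1 and 9.26 FPKM against 24.7, 25.7 and 23.9 FPKM (1.27, SE 0.06). Epas1, which encodes HIF-2α, was at 12.2 and 13.2 FPKM in NSCs and at 4.08, 3.96 and 4.09 FPKM in STO cells (-1.44, SE 0.06). Arnt2, the neural partner, was at 38.2 and 38.9 FPKM in NSCs and at 1.99, 1.73 and 1.85 FPKM in STO cells (-3.79, SE 0.06). Egln3, a prolyl hydroxylase that is itself induced by hypoxia, was at 74.8 and 77.7 FPKM in NSCs and at 0.0166, 0 and 0 FPKM in STO cells (-6.26), and passed the level filter only through NSCs. Without it, 4 of the 8 remaining genes were lower and 3 higher, against 38.9% and 43.6% of all genes at 1 FPKM or more in both groups. Hif1an differed by 0.27 (SE 0.06).

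Of 16 other known hypoxia targets outside glycolysis, 14 were lower and 2 higher in STO cells, and 8 were lower by a log2 difference of at least 1, with a median of -1.04. Over all genes tested 43.7% were lower, 21.3% by at least 1, and the median was -0.02. Ankrd37, Car12 and Car9, which are among the 8, passed only through NSCs and had to be lower. Of the other 13 genes 11 were lower and 2 higher, with a median of -0.86. Among all 9827 genes at 1 FPKM or more in both groups 38.9% were lower and 43.6% higher, and the median was 0.05. Ddit4 was at 192 and 114 FPKM in NSCs and at 6.68, 5.05 and 6.15 FPKM in STO cells (-4.43, SE 0.22). Ankrd37 was at 8.65 and 7.45 FPKM and Car12 at 7.67 and 6.74 FPKM in NSCs, and both were listed at 0 in every STO sample. P4ha2, a collagen prolyl hydroxylase, and Ndrg1 were higher, from 3.13 and 2.55 to 29.4, 27.9 and 29.5 FPKM and from 3.25 and 3.28 to 19.6, 19.6 and 20.7 FPKM. The NSC samples also differed from each other in these genes. Of the 32 glycolysis genes 24 were higher in NSC replicate 1 than in replicate 2, and of the 16 hypoxia targets 14 were, against 39.0% of all genes tested. The part of this difference between the NSC samples in the results was tested only by leaving out each of them.

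**Figure D5:**
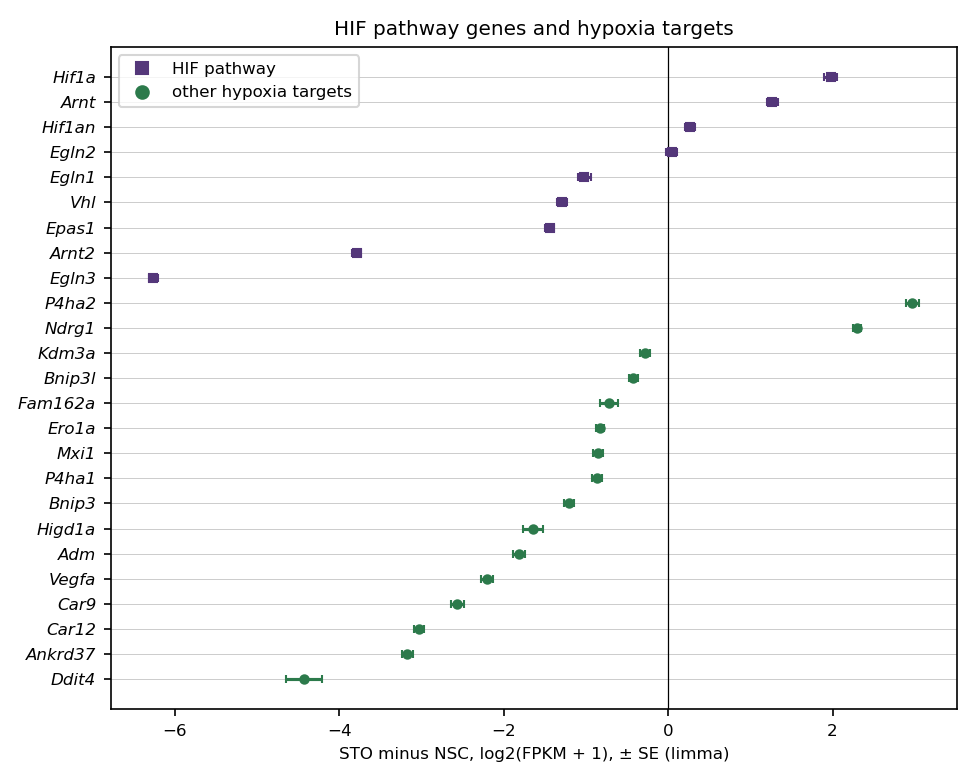
Difference in log2(FPKM + 1), STO minus NSC, for the 9 tested genes of the hypoxia-inducible factor pathway (squares) and 16 other hypoxia targets (circles), with bars for the SE from limma. Hif1a lies at 1.98 and Egln3 at -6.26, and 14 of the 16 targets lie left of 0, 3 of which passed the level filter only through NSCs.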

How the data were processed

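RNA-seq was analysed in 2 NSC and 3 STO samples. The authors trimmed the reads of stranded mRNA libraries, aligned them to mm9 with HISAT2 (version given as 4.8.2) and calculated FPKM per RefSeq transcript with Cufflinks 2.2.1. The deposited FPKM values are normalized for transcript length and depth, and the depth itself is not stated. The fragments quoted therefore come from the confidence bounds, which did not follow counting alone for abundant genes. In NSC replicate 1 they implied 2275 fragments for Eno1 at 1254 FPKM and 53086 for Gpi1 at 595 FPKM. The fragments are thus rough and do not cover variation between samples. Cufflinks divides reads between transcripts and near-identical genes, which can place 0 in 1 transcript. Of 40201 transcripts 39951 (99.4%) matched a symbol, and their FPKM values were summed per gene, 63 transcripts for the 32 genes.

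Genes with a mean of at least 1 FPKM in either group were fitted with limma 3.58.1 in R 4.3.3 on log2(FPKM + 1), which understates the change of low genes, with intensity trend, no covariate and Benjamini-Hochberg adjustment at 0.05. Differences are STO minus NSC. Shares and sums were compared by two-sided exact permutation over the samples. The procedure was also run on simulated data with normal noise and few changed genes. Most genes were called in the real comparison, so that run does not test the calls given here. Alternatives were a pseudocount of 0.1, no level filter, TPM, median-of-ratios and quantile scaling, no trend, a replicate block, the highest transcript only, each sample left out and a minimum log2 difference of 1. Summing Eno1 with Eno1b was added after the data were seen.

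The genes and lists were chosen with earlier results of these data known. Every one of the 32 genes is named. From each other list the 3 largest rises and falls among called genes whose groups did not overlap are named, or all such genes in lists of 8 or fewer. Bsg, which was not called, is named in addition. Genes in longer lists beyond these are given as counts. Samples with equal replicate numbers were not treated as pairs in the main fit. The deviations of equal numbers correlated at 0.0075 and 0.061. The deviations of the 2 NSC samples mirror each other, so these values cannot show whether samples were processed together. Exon sequences come from the mm9 genome with GENCODE annotation and promoters from RefSeq.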

Additional observations from a re-analysis of the deposited data

How the results depend on the processing

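Over the glycolysis genes, 22 lower and 6 higher calls stood against 19 to 23 lower and 3 to 7 higher under the other scalings, filters and transcript choices and with each sample left out. Leaving out 1 sample gave 21 to 23 lower and 3 to 6 higher. The 3 remained without NSC replicate 2, where Slc2a1, Pfkfb2 and Eno2 were not called. With a minimum log2 difference of 1 the counts were 12 lower and 2 higher, in the other lists 22 and 14 against 45 and 24, and over all genes 2617 and 2103. The replicate block, which fits the third STO sample by itself, changed no call of the 32 genes, giving 22 lower and 6 higher, and over all genes gave 5252 lower and 4994 higher against 5375 and 5153. The summed level of the genes in STO cells was 0.612 to 0.666 of that in NSCs with each sample left out, 0.720 in TPM and 0.618 without Gapdh.

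With the highest transcript only, the STO shares were 62.4% for Pfkl, 24.5% for Pfkm, 13.1% for Pfkp, 14.6% for Pfkfb2, 72.0% for Pfkfb3, 13.4% for Pfkfb4, 2.60% for Eno2 and 0% for Slc16a3, and the NSC shares were 7.48% for Pfkfb2, 89.1% for Pfkfb3 and 1.32% for Eno2. With M1 at its lower and upper bounds and M2 at its estimate, the M1 share of Pkm in STO cells was 13.5% and 14.7%. These values do not cover a wrong split of reads between the 2 transcripts. Signs turned with quantile normalization for Aldoa (0.016), Gapdh (0.059), Pkm (0.076) and Pdha1 (0.11), with TPM for Pdha1 (0.14) and Vdac3 (0.0010), with the highest transcript for Vdac3 (0.46), and without NSC replicate 2 for Pdha1 (0.0044, with -0.069 to 0.0044 over the left-out samples). The cause was not tested. The Akr1b3 call was lost under 6 of the alternatives. Groups of 2 and 3 limit an exact p to 0.1, and genes at a few fragments in STO cells, Slc2a3, Aldoc and Slc16a3, have no precise level there.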
